A study of Mus musculus with 20 samples.

Results

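A set of 8 genes of glucose production and hepatic glucose handling was followed in kidney and liver of mice labelled as lacking the nuclear receptor Lxrα and of wild-type mice. They are Pcx, Pck1, Fbp1, G6pc, Slc2a2, Pfkfb1, Ppargc1a and Tat, chosen by symbol, and all 8 are among the 54532 genes of the count table. RNA was sequenced from flash-frozen kidney and liver of male C57BL/6 mice, in 4 groups of 5 libraries: Lxrα-/- kidney, Lxrα-/- liver, wild-type kidney and wild-type liver. The titles number the labelled knockout mice 1 to 5 and the wild-type mice 1, 3, 4, 5 and 6. A kidney and a liver that share genotype and number were taken as coming from 1 mouse. The main fits did not use this pairing, which entered alternative fits and the correlations between tissues. Age, diet, hours of fasting, time of day at collection and the design of the Lxrα allele are not given in the sources used here.

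Gluconeogenesis makes glucose from lactate, glycerol and amino acids. It runs in hepatocytes and in the proximal tubule of the kidney, and in liver it rises in fasting under glucagon and glucocorticoids and falls after feeding under insulin. Lxrα, encoded by Nr1h3, is a receptor for oxysterols that raises lipogenic genes and genes that export cholesterol, and synthetic Lxr agonists are known to lower Pck1 and G6pc in rodent liver. The design asks whether these genes differ by genotype in each tissue and whether that difference depends on the tissue.

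The members cover the route from pyruvate to blood glucose. Pcx (ENSMUSG00000024892, chromosome 19, 4510472 to 4621752, plus strand, in mm10 coordinates of the count table, as are those below) encodes pyruvate carboxylase, which makes oxaloacetate from pyruvate in mitochondria. Pck1 (ENSMUSG00000027513, chromosome 2, 173153048 to 173159273, plus strand) encodes the cytosolic phosphoenolpyruvate carboxykinase. Fbp1 (ENSMUSG00000069805, chromosome 13, 62864753 to 62888282, minus strand) encodes fructose-1,6-bisphosphatase, which opposes phosphofructokinase. G6pc (ENSMUSG00000078650, chromosome 11, 101367561 to 101377903, plus strand) encodes the glucose-6-phosphatase catalytic subunit, the last step before free glucose. Slc2a2 (ENSMUSG00000027690, chromosome 3, 28697903 to 28731359, plus strand) encodes the glucose carrier GLUT2. Pfkfb1 (ENSMUSG00000025271, chromosome X, 150588229 to 150643878, plus strand) encodes the liver form of the bifunctional enzyme that makes and removes fructose-2,6-bisphosphate, the signal that favours glycolysis. Ppargc1a (ENSMUSG00000029167, chromosome 5, 51454250 to 51567726, minus strand) encodes PGC-1α, a coactivator of gluconeogenic genes in the fasted liver. Tat (ENSMUSG00000001670, chromosome 8, 109990437 to 109999803, plus strand) encodes tyrosine aminotransferase, a classic target of glucocorticoids and glucagon in hepatocytes. All 8 are protein-coding.

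The promoters of Pck1 and G6pc are shown because these are the classic hormone-controlled steps of the pathway. They differ in which of the short motifs searched here match exactly near their starts. RefSeq promoters (build GRCm38.p6, 250 bases before to 50 after a start) were matched for 8 of 8 members, 12 promoters in all. Capitals mark matches to 6 short motifs searched on both strands: TGACGTCA and TTACGTCA (cAMP response forms), TGTTTAC and TGTTTTG (FoxO and insulin response forms), TGTTCT (part of a glucocorticoid receptor element) and AGGTCA (part of a nuclear receptor element).
Pck1, chr2:173152823-173153122, plus strand: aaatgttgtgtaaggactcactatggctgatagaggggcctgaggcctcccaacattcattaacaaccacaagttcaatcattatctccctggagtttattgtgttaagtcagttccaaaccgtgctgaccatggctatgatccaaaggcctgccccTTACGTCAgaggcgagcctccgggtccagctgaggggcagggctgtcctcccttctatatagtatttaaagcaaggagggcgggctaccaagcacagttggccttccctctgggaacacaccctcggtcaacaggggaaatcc
G6pc, chr11:101367466-101367765, plus strand: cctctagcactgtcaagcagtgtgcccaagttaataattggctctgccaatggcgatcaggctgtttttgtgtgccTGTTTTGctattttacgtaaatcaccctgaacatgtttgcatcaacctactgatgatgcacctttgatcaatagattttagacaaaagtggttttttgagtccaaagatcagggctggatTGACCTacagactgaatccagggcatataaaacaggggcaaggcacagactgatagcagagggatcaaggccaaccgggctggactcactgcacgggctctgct
Pck1 held TTACGTCA from 93 to 86 bases before the start, a match that 0.499% of the 32851 promoters in the table have. G6pc held TGTTTTG from 174 to 168 bases before the start, present in 6.28% of promoters, and AGGTCA on the opposite strand, which reads TGACCT above, from 54 to 49 bases before it. AGGTCA also occurred in promoters of Slc2a2, Pcx and Pfkfb1, and 16.3% of all promoters hold it. TGACGTCA (1.79% of promoters), TGTTTAC (3.65%) and TGTTCT (19.0%) had no match in the 12 promoters. The windows of Fbp1, Ppargc1a and Tat held none of the 6 motifs. These are exact matches of letters. Other forms of the motifs were not searched, so a missing match does not show that a response element is absent. No binding was measured here.

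Total counts ran from 23421561 to 35376342 per library. The targeted gene was counted higher, not lower, in the libraries labelled knockout. As the allele is not described, counts over the whole gene do not test the labels. Nr1h3 stood at 144 to 189 CPM (counts relative to the library total, scaled by TMM) in the livers labelled knockout against 85.4 to 119 in wild type, and at 99.3 to 157 against 49.5 to 55.0 in kidney, log2 fold changes of 0.76 and 1.27 (edgeR adjusted p = 0.00277 and 0.00209). The libraries are therefore called labelled knockout throughout. Mitochondrially encoded genes took 50.8% of counts in wild-type kidney 3 and 7.21% in wild-type kidney 1, outside the 12.6% to 21.1% of the other 8 kidneys. The tissue labels were borne out by defining markers: Alb, the hepatocyte albumin gene, averaged 95822 CPM in wild-type liver and 3.72 in wild-type kidney, and Slc34a1, the proximal tubule phosphate carrier gene, 0.0162 and 2992. Summed over 9 hepatocyte markers, liver gave 84391 to 102762 CPM in labelled knockout and 118202 to 135693 in wild type, and over 15 proximal tubule markers kidney gave 51544 to 62239 and 25905 to 46839, both scaled by library size alone. The single hepatocyte markers went both ways: in liver 4 of the 9 leaned up and 5 down, with a median log2 difference of -0.15 and 1 called lower, Alb. A large part of the hepatocyte sum is Alb itself. Lymphocyte markers summed to 4.72 to 9.01 CPM in labelled knockout liver against 12.04 to 15.5 in wild type, and to 3.93 to 7.07 against 11.7 to 18.7 in kidney, and macrophage and Kupffer cell markers to 178 to 348 against 330.1 to 493 in liver. Endothelial and stellate markers in kidney summed to 71.2 to 166 CPM against 192 to 378, with 3 of 9 called lower and a median of -0.87. Distal nephron markers summed to 7831 CPM in wild-type kidney 1 and to 3120 to 4039 in the other 4 wild-type kidneys. In such bulk samples, fewer cells of a type and less RNA per cell cannot be told apart.

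Per unit of transcript length, liver of wild-type mice carried most RNA for Fbp1, Pck1 and Tat. On the FPKM scale, computed from the counts and the gene lengths of the table, wild-type liver had 548 ± 172 for Fbp1, 441 ± 133 for Pck1, 415 ± 128 for Tat, 211 ± 68.7 for G6pc, 108 ± 20.6 for Pcx and 62.7 ± 14.0 for Slc2a2 (mean ± SD, n = 5, as for all group values below). The ranges of neighbours in that order overlapped. Pfkfb1 followed at 7.11 ± 1.98 and Ppargc1a at 0.900 ± 0.259 FPKM, each apart from the gene above it. Wild-type kidney had a different order. Pck1 led at 507 ± 127 FPKM and Fbp1 followed at 373 ± 218, then Pcx at 112 ± 52.2, G6pc at 84.0 ± 45.5 and Slc2a2 at 28.6 ± 11.995, with overlapping ranges between neighbours. Ppargc1a at 7.08 ± 1.94 FPKM and Pfkfb1 at 0.370 ± 0.138 stood apart below them, and Tat was next to absent. In labelled knockout liver the first 3 were Pck1 at 567, Tat at 468 and Fbp1 at 406 FPKM, with overlapping ranges, and in labelled knockout kidney Fbp1 at 479 and Pck1 at 388, also overlapping.

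**Figure D1:**
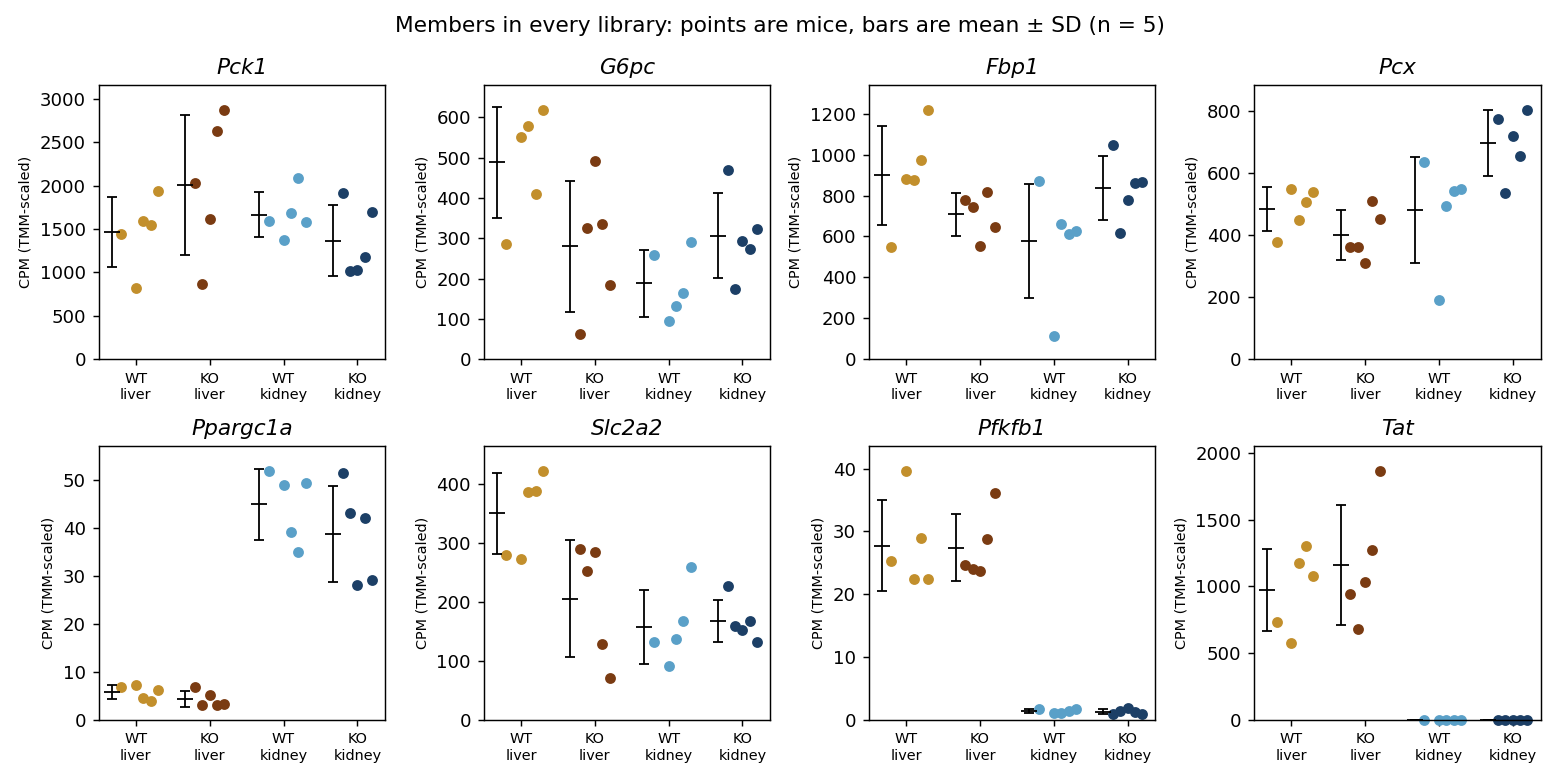
CPM of each of the 8 genes (vertical axis, linear from 0) in the 20 libraries, by group (WT wild type, KO labelled knockout), with 1 point per mouse and bars for mean ± SD (n = 5). Within each tissue the points of both genotypes overlap for every gene with counts, while Tat and Pfkfb1 fall far apart between liver and kidney.

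In liver, none of the 8 genes passed the genotype test. The count is 0 of 8 members against 893 of 14822 tested genes, or 6.02%, called at an adjusted p under 0.05 by edgeR's quasi-likelihood test. DESeq2 and limma voom also called 0 of 8. Limma-trend called 0 of the members among the 15454 genes with log2 FPKM values. At an unadjusted p under 0.05 there was 1 member, Slc2a2, and 20.3% of all tested genes. The median log2 fold change, labelled knockout over wild type, was -0.31 over the members and -0.0032 over all genes, and the genotypes overlapped for each of the 8, where 6.94% of tested genes did not overlap.

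Pcx, the entry step, stood at 378, 549, 447, 508 and 538 CPM in wild-type livers 1, 3, 4, 5 and 6 and at 362, 363, 308, 509.5 and 453 CPM in labelled knockout livers 1 to 5. The values of 3 labelled knockout livers lay below every wild-type liver, and the other 2 lay within the wild-type range. The log2 difference was -0.28 (SE 0.16, adjusted p = 0.367). Pck1 read 1445, 822, 1587, 1546 and 1935 CPM in the wild-type livers and 2032, 862, 1612, 2629.6 and 2874 CPM in the labelled knockout livers, in the same order. Labelled knockout livers 1, 4 and 5 exceeded every wild-type liver, whereas liver 2 was close to the lowest wild-type value. The resulting log2 difference was 0.45 (95% interval -0.20 to 1.09, adjusted p = 0.446), and it came to 0.04 without labelled knockout livers 4 and 5.

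Fbp1 was at 546, 880.4, 877, 974 and 1219.9 CPM in wild-type liver and at 778, 744, 554, 816 and 647 CPM in labelled knockout liver. All labelled knockout values lay above wild-type liver 1 and below the other 4. Its log2 difference was -0.35 (SE 0.19, adjusted p = 0.351). G6pc, the final enzyme, had 287, 551, 579, 409.9 and 619 CPM in wild type and 61.7, 326, 491, 336 and 184 CPM in labelled knockout. Labelled knockout livers 1 and 5 fell below the whole wild-type range and the other 3 lay within it. The coefficient of variation was 58.4% in labelled knockout and 28.2% in wild type, a spread that was not tested, and the log2 difference was -0.81 with a 95% interval from -1.69 to 0.08 (SE 0.41, adjusted p = 0.297).

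Slc2a2, the carrier that lets glucose cross the hepatocyte membrane, gave 279, 273, 387, 388 and 423 CPM in wild-type liver and 290.1, 252, 285, 128 and 71.3 CPM in labelled knockout liver. Labelled knockout livers 4 and 5 were far below all others, and livers 1 and 3 lay just above the 2 lowest wild-type livers. The log2 difference of -0.77 (95% interval -1.47 to -0.07) had an unadjusted p of 0.0330 and an edgeR adjusted p of 0.198. Without labelled knockout livers 4 and 5 it came to -0.34. Pfkfb1 was level between genotypes, at 25.3, 39.7, 22.4, 28.9 and 22.4 CPM in wild type and 24.6, 24.0, 23.6, 28.8 and 36.1 CPM in labelled knockout. Its difference was -0.02 on the log2 scale, with a 95% interval from -0.39 to 0.36, and its sign changed with the size factors used.

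Of the regulators and hormone-responsive genes, Ppargc1a was low in every liver. It had 6.82, 7.34, 4.46, 3.89 and 6.17 CPM in wild type and 6.73, 3.02, 5.20, 3.18 and 3.31 CPM in labelled knockout, where livers 2, 4 and 5 lay under the lowest wild-type value. The log2 difference was -0.42 (SE 0.26, adjusted p = 0.403). Tat had 733, 577, 1176, 1302 and 1080.5 CPM in wild-type and 942, 678, 1030.0, 1275 and 1869 CPM in labelled knockout liver. Only labelled knockout liver 5 exceeded the wild-type range. The difference was 0.25 (95% interval -0.35 to 0.85, adjusted p = 0.667), and it turned to -0.13 without labelled knockout livers 4 and 5.

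In kidney, again none of the members passed the test. Tat had too few counts to be tested, and of the other 7 the test called 0, beside 373 of 16500 genes, or 2.26%, called in kidney. DESeq2 and limma-trend called 0 of 7 as well. With quality weights, limma voom called G6pc (log2 difference 0.76, adjusted p = 0.0480), beside 2151 of the 16500 genes. G6pc was also the 1 member with an unadjusted p under 0.05, which 19.8% of all tested genes had. The median log2 difference was 0.09 over the 7 members and -0.07 over all genes. Each member's genotypes overlapped, and 6.92% of tested genes did not.

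G6pc in kidney read 259, 94.97, 132, 163 and 291 CPM in wild-type mice 1, 3, 4, 5 and 6 and 468, 174, 294, 273 and 324 CPM in labelled knockout mice 1 to 5. In 3 labelled knockout kidneys the level exceeded every wild-type kidney, and the lowest labelled knockout kidney exceeded 3 wild-type kidneys. The log2 difference was 0.70 (95% interval 0.0046 to 1.40, unadjusted p = 0.0487, edgeR adjusted p = 0.249). The summed proximal tubule markers were also higher in labelled knockout kidney and did not overlap between these groups. The summed endothelial and stellate markers were lower there. The part of these markers in the result was not tested.

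Fbp1 and Pcx also leaned higher in labelled knockout kidney, and wild-type kidney 3 was the lowest for both. Fbp1 had 871, 112, 661, 612 and 629 CPM in wild type and 1049, 617, 780.0, 862 and 867 CPM in labelled knockout kidney. Wild-type kidney 3, the library with the high mitochondrial share, lay far below the other 9. The difference was 0.53 (SE 0.40, adjusted p = 0.442). Pcx had 636, 191, 492, 541 and 546 CPM in wild type and 774, 536, 718, 654 and 803 CPM in labelled knockout. All labelled knockout kidneys but number 2 exceeded the wild-type range, and wild-type kidney 3 was again lowest. The log2 difference was 0.53 (95% interval -0.077 to 1.147, adjusted p = 0.308). Without wild-type kidneys 1 and 3, the log2 differences were 0.65 for G6pc, 0.40 for Fbp1 and 0.40 for Pcx.

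Pck1, the most abundant of the 8 in wild-type kidney, leaned the other way from these enzymes. It read 1595, 1374, 1688, 2092 and 1581 CPM in wild type and 1909.7, 1011, 1029, 1179 and 1690.3 CPM in labelled knockout, where kidneys 2, 3 and 4 lay below all wild-type kidneys and the other 2 above 4 of them. The difference was -0.29 (SE 0.25, adjusted p = 0.506). Ppargc1a was at 52.0, 48.9, 39.2, 35.1 and 49.4 CPM in wild type and 51.5, 43.1, 28.1, 42.0 and 29.2 CPM in labelled knockout (log2 difference -0.21, adjusted p = 0.536). Slc2a2 had 133, 90.8, 137, 167 and 259.7 CPM in wild type and 227, 159, 152, 167 and 131 CPM in labelled knockout. Its difference of 0.09 had a 95% interval from -0.47 to 0.64 and turned to -0.17 without wild-type kidneys 1 and 3. Pfkfb1 was near 1 CPM in all kidneys, from 1.07 to 1.75 in wild type and from 0.843 to 1.81 in labelled knockout. Tat had 1 count in wild-type kidney 1 and 0 in the other 9.

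**Figure D2:**
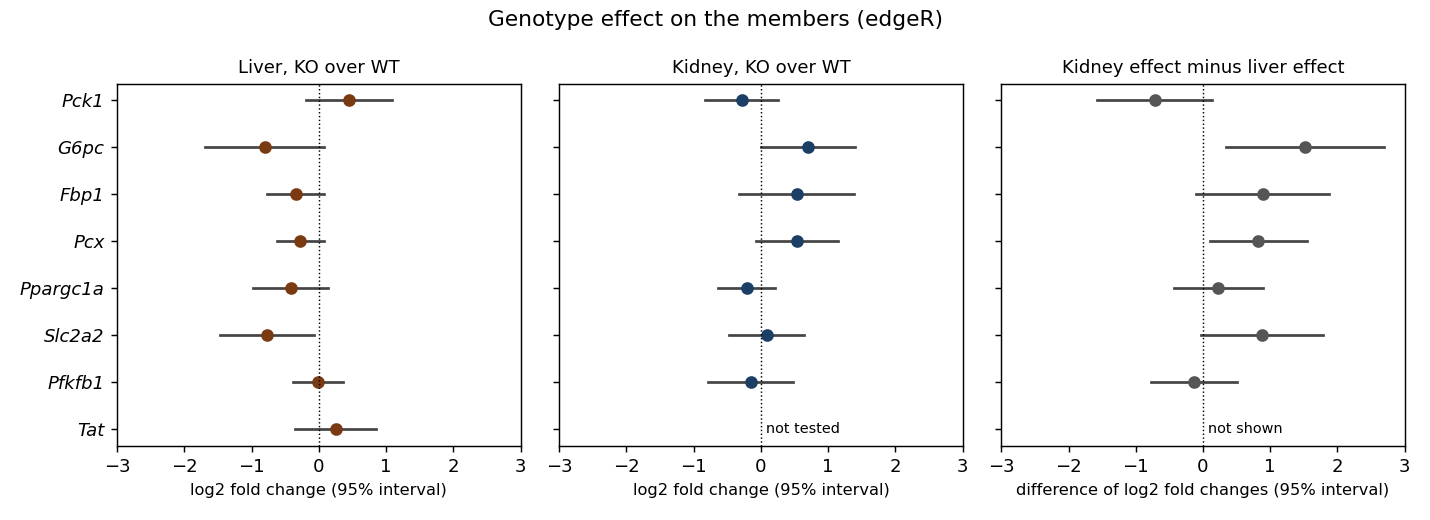
Log2 fold change of labelled knockout over wild type with its 95% interval for each member in liver and in kidney, and the kidney minus liver difference of these values, from edgeR (Tat was not tested in kidney). In the panels by tissue, the liver interval of Slc2a2 (-1.47 to -0.07) and the kidney interval of G6pc (0.0046 to 1.40) are the ones that leave out 0, and no member passed after adjustment.

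The genotype difference in kidney was set against that in liver in 1 fit of all 20 libraries. Of the 8 members 0 passed, beside 265 of 17606 genes, or 1.51%. DESeq2 and limma-trend called 0 too, and 2 members had an unadjusted p under 0.05, as did 13.5% of all genes. G6pc leaned down in liver and up in kidney, and its difference between tissues was 1.52 on the log2 scale (95% interval 0.35 to 2.69, unadjusted p = 0.0134, adjusted p = 0.220). For Pcx it was 0.82 (95% interval 0.11 to 1.54, unadjusted p = 0.0265, adjusted p = 0.295). Limma voom called the Pcx difference (0.76, adjusted p = 0.0371), beside 681 of the 17606 genes. Fbp1 and Slc2a2 had 0.89 and 0.88 (adjusted p = 0.414 and 0.385), Pck1 -0.72 (0.446), Ppargc1a 0.23 (0.771) and Pfkfb1 -0.13 (0.878). Tat, with no more than 1 count in any kidney, allows no such comparison.

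Wild-type kidney and liver, by contrast, differed in 6 of the 8 members. Across all genes, 8954 of 16645, or 53.8%, were called between these tissues, 29.6% higher and 24.2% lower in kidney, so a share of that size is common here. Ppargc1a was higher in kidney, and G6pc, Fbp1, Slc2a2, Pfkfb1 and Tat were lower. In all, 5 members did not overlap between tissues (43.9% of all genes): Fbp1 was called but overlapped. For G6pc this depends on the scaling. On FPKM, without TMM scaling, 3 of 5 wild-type kidneys lay below every wild-type liver, so the tissues overlapped. CPM in this comparison come from 1 scaling of the 10 wild-type libraries and so differ from those above.

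Tat, the hepatocyte gene of tyrosine breakdown, showed the widest gap. It had 145898 counts over the 5 wild-type livers and 1 over the 5 wild-type kidneys, a ratio of counts per total of 145863 with an exact 95% interval from 26179 to 5761320, which covers counting error only. In the labelled knockout mice it had 158972 counts in liver and 0 in kidney, at least 55092-fold higher in liver against a floor of 3 counts over the group. Pfkfb1 was at 1.157 ± 0.285 CPM in kidney and 35.5 ± 9.11 CPM in liver (log2 fold change -4.92, SE 0.25, adjusted p = 1.43e-09). Kidney had more Ppargc1a, at 37.0 ± 6.20 against 7.33 ± 1.89 CPM, a log2 fold change of 2.33 (SE 0.21, adjusted p = 4.88e-07).

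G6pc was at 155 ± 70.7 CPM in kidney and 624 ± 171 in liver (log2 fold change -2.01, adjusted p = 0.000159). Slc2a2 was at 129.8 ± 52.6 against 447 ± 87.0 CPM (-1.78, adjusted p = 8.76e-05). Fbp1 was at 478 ± 235 against 1148 ± 302 CPM (-1.27, adjusted p = 0.0214). Its call was lost without wild-type mouse 4, 5 or 6 (adjusted p 0.0595 to 0.0736) and without TMM scaling, where it was -0.55 (adjusted p = 0.314). Pck1 and Pcx did not pass. Pck1 was at 1371 ± 223 CPM in kidney and 1876 ± 514 in liver (-0.45, adjusted p = 0.162), and was called at -0.54 without wild-type mouse 3 (adjusted p = 0.0277). Pcx was at 398 ± 144 and 618 ± 87.5 CPM (-0.64, adjusted p = 0.0799), and DESeq2 called it (adjusted p = 0.0472). Without TMM scaling the median of all genes moved from 0.05 to 0.69, and Pck1 and Pcx changed sign to 0.20 and 0.06, so their direction between tissues depends on the scaling.

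The members varied between mice of 1 genotype, and pairs of them were compared by their deviations from the genotype means over 10 livers or 10 kidneys. Of 56 relations, 28 in liver, 21 in kidney and 7 between kidney and liver of 1 mouse, 0 passed after adjustment, and 8 had an unadjusted permutation p under 0.05 (100000 draws within genotype). In liver the closest pair was Pck1 and Tat, both raised by glucagon and glucocorticoids, with Pearson's r of 0.85 (permutation p = 0.00267, adjusted p = 0.0660) and Spearman's rho of 0.79 (permutation p = 0.0130, adjusted p = 0.197). Its r was 0.66 without labelled knockout liver 2 and wild-type liver 3. Pck1 and G6pc, the 2 classic gluconeogenic markers, had an r of -0.23 (permutation p = 0.616, adjusted p = 0.832) and rho of -0.14. Slc2a2 and Pfkfb1 ran opposite, with r of -0.73 (permutation p = 0.00589, adjusted p = 0.0660), rho of -0.62 (adjusted p = 0.197) and r of -0.61 without labelled knockout livers 4 and 5.

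In kidney, Fbp1 and Pcx had an r of 0.98 (permutation p = 0.00359, adjusted p = 0.0660) and rho of 0.85 (permutation p = 0.0165, adjusted p = 0.197). Without wild-type kidneys 3 and 1 the r was 0.85. G6pc went with Pcx at r of 0.77 (permutation p = 0.00183, adjusted p = 0.0660; rho 0.81) and with Fbp1 at r of 0.72 (permutation p = 0.00486, adjusted p = 0.0660; rho 0.58), and these were 0.74 and 0.64 without wild-type kidneys 3 and 6. Between kidney and liver of 1 mouse, Pck1 had the highest r, 0.59 (permutation p = 0.124, adjusted p = 0.445). Slc2a2 had the smallest permutation p, with an r of 0.50 (permutation p = 0.0447, adjusted p = 0.347). Pfkfb1 ran opposite between the organs, with an r of -0.58 (permutation p = 0.0875, adjusted p = 0.445).

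**Figure D3:**
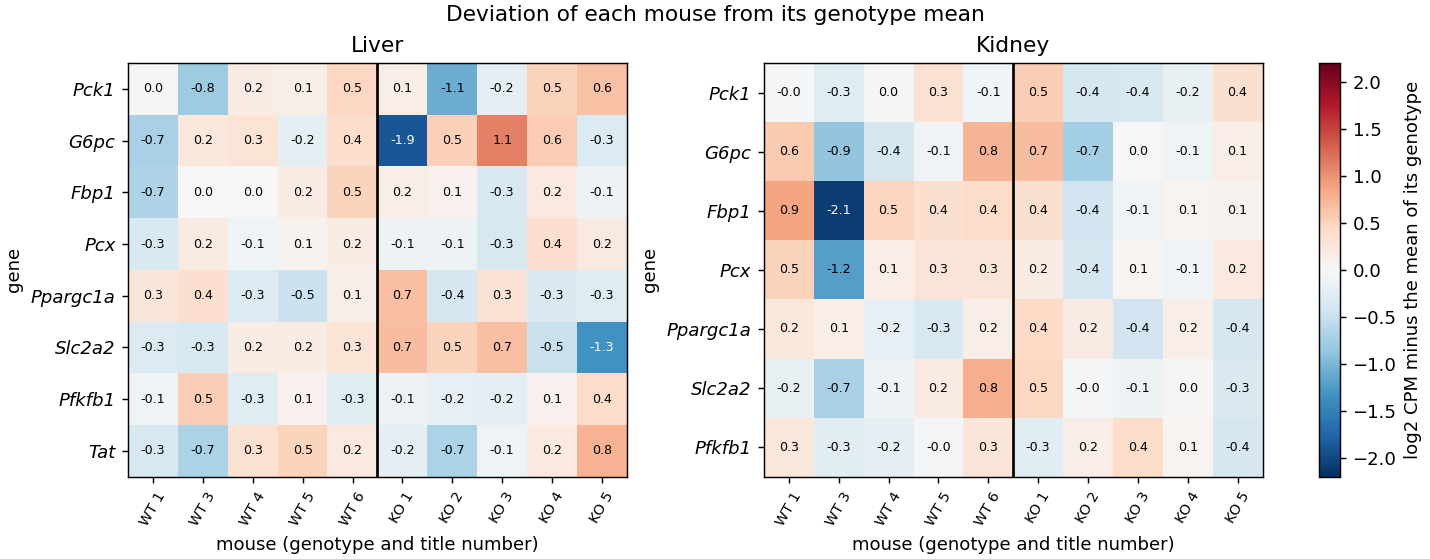
Deviation of each member from its genotype mean (log2 CPM, colour scale, rows genes and columns mice) in liver and kidney. Pck1 and Tat are low together in wild-type liver 3 and labelled knockout liver 2, and wild-type kidney 3 is low for Fbp1, Pcx and G6pc together.

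Among 11649 protein-coding genes of at least 1 CPM in liver, the genes most like Pck1 over the 10 livers were Rnf166 (r 0.96), Wwc1 (0.96) and Stac3 (0.95). Nearest to G6pc were Adgrg6 (0.95), Tbxas1 (0.90) and Ddx58 (0.89). Ppargc1a was followed most closely by Acp6 (0.95), Rbm4 (0.93) and Jade2 (0.91), and Tat by Dhx38 (0.95), Tlr2 (0.94) and Plekha8 (0.93). These are the top ranks of many genes over 10 points of log2 CPM from shared libraries and are given as a description.

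Around the 8 genes, 8 lists of the same pathways, with 134 symbols, were counted. The lists were chosen with earlier results of these data known. Their counts stand beside the shares of all genes as a description only. In liver, 1 gene was called higher and 13 lower of 124 tested, where 1.94% of all genes were higher and 4.08% lower. The median log2 difference was -0.14 over these genes. Beside these counts stands the lower hepatocyte sum, a large part of which is Alb, with its single markers going both ways. The sums of macrophage and lymphocyte markers were also lower in labelled knockout liver. The part of these markers in the results was not tested. With 1 liver left out, 0 to 2 genes were higher and 7 to 15 lower, with 8 lower without labelled knockout liver 4, 8 without wild-type liver 5 and 7 without wild-type liver 6. Leaving out labelled knockout livers 4 and 5 gave 2 higher and 9 lower.

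The other gluconeogenic enzymes and the glucose-6-phosphate transporter had 0 genes higher and 4 lower of 14, with a median log2 difference of -0.42. Gpi1, the isomerase of glucose-6-phosphate and fructose-6-phosphate, fell to 136 ± 9.63 from 238 ± 33.7 CPM (log2 -0.80, SE 0.12, adjusted p = 0.00169). Pck2, the mitochondrial counterpart of Pck1, fell to 4.18 ± 0.341 from 7.84 ± 0.969 CPM (-0.91, SE 0.14, adjusted p = 0.00175). Eno1, an enolase, fell to 365 ± 24.4 from 532 ± 86.6 CPM (-0.54, adjusted p = 0.0304), and Slc37a4, which carries glucose-6-phosphate to G6pc in the endoplasmic reticulum, to 126 ± 17.7 from 204 ± 49.96 CPM (-0.70, adjusted p = 0.0318). The Eno1 call was lost in 9 of 10 fits that left out 1 liver, all but wild-type liver 1 (adjusted p 0.0539 to 0.101), and the Slc37a4 call in 7, those without labelled knockout liver 2, 3, 4 or 5 or wild-type liver 4, 5 or 6 (0.0532 to 0.0994).

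Glycolytic control had 2 of 14 genes lower, 0 higher and a median of -0.17. Pklr, the liver pyruvate kinase that works against Pcx and Pck1, fell to 89.2 ± 42.9 from 372 ± 127 CPM (log2 -2.06, SE 0.34, adjusted p = 0.00346), and Hk3, a hexokinase of blood cells, to 2.97 from 6.09 CPM (-1.04, adjusted p = 0.0160; 0.0506 without wild-type liver 6).

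Glycogen metabolism had 2 of 16 genes lower, 0 higher and a median of -0.41. Pygl, the liver glycogen phosphorylase, was at 332 ± 68.0 against 576 ± 113 CPM (-0.80, adjusted p = 0.0230), and Pygb, the brain form, at 3.98 against 7.65 CPM (-0.94, adjusted p = 0.0360). Each call was lost without labelled knockout livers 4 and 5. Pygl's was also lost without labelled knockout liver 4 or wild-type liver 3, 4, 5 or 6 (0.0507 to 0.0678), and Pygb's without labelled knockout liver 1, 2, 3 or 4 or wild-type liver 3, 5 or 6 (0.0591 to 0.102).

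Lactate, pyruvate and glycerol entry had 3 of 14 genes lower, 0 higher and a median of -0.37. Aqp7, a glycerol channel, had 5 counts over the labelled knockout livers and 158 over the wild-type livers (0.0373 against 1.07 CPM, adjusted p = 0.000423). Slc16a7, a monocarboxylate carrier, fell to 25.9 ± 10.4 from 63.5 ± 6.21 CPM (-1.29, adjusted p = 0.00897). Pdk1, a kinase that inhibits pyruvate dehydrogenase, fell to 31.7 ± 13.7 from 67.0 ± 10.97 CPM (-1.08, adjusted p = 0.0370), a call lost without labelled knockout liver 3 or 4 or wild-type liver 3, 4, 5 or 6 (0.0512 to 0.0912).

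Amino acid breakdown and the urea cycle, Tat's setting, had 1 of 23 genes higher and 0 lower, with a median of 0.06. Oat, the ornithine aminotransferase, was at 1281 ± 497 against 675 ± 139 CPM (0.92, adjusted p = 0.0323), and its call was lost without wild-type liver 1, 3, 4 or 6 (0.0562 to 0.0785). Hormonal and transcriptional control had 1 of 26 genes lower, 0 higher and a median of -0.09. Igfbp1, an insulin-repressed binding protein of insulin-like growth factors, fell to 21.0 ± 14.5 from 189 ± 108 CPM (-3.17, SE 0.51, adjusted p = 0.00288). The glucagon receptor Gcgr was at 390.0 ± 44.7 against 313 ± 60.5 CPM (0.32, adjusted p = 0.240), the insulin receptor Insr at 89.1 ± 12.1 against 106 ± 8.75 (-0.25, adjusted p = 0.255) and Foxo1 at 15.2 ± 1.21 against 17.1 ± 1.27 (-0.17, adjusted p = 0.355). Glucocorticoid-induced genes had 0 of 10 called by edgeR and 4 at an unadjusted p under 0.05, which 20.3% of all tested genes had. DESeq2 called 1 of the 10 lower, beside 870 of all 14822 genes. The median of the list, -0.14, moved with single livers. It was -0.39, with 1 gene called lower, without labelled knockout liver 5, and -0.068 without labelled knockout liver 3. With voom it was -0.45, and without labelled knockout livers 4 and 5 it was -0.52. The list of other glucose and fructose carriers, which also holds ketohexokinase, had 1 of 7 lower, and that gene was Khk, at 323 ± 44.2 against 510 ± 69.8 CPM (-0.66, adjusted p = 0.0133). Its call was lost without labelled knockout livers 4 and 5.

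**Figure D4:**
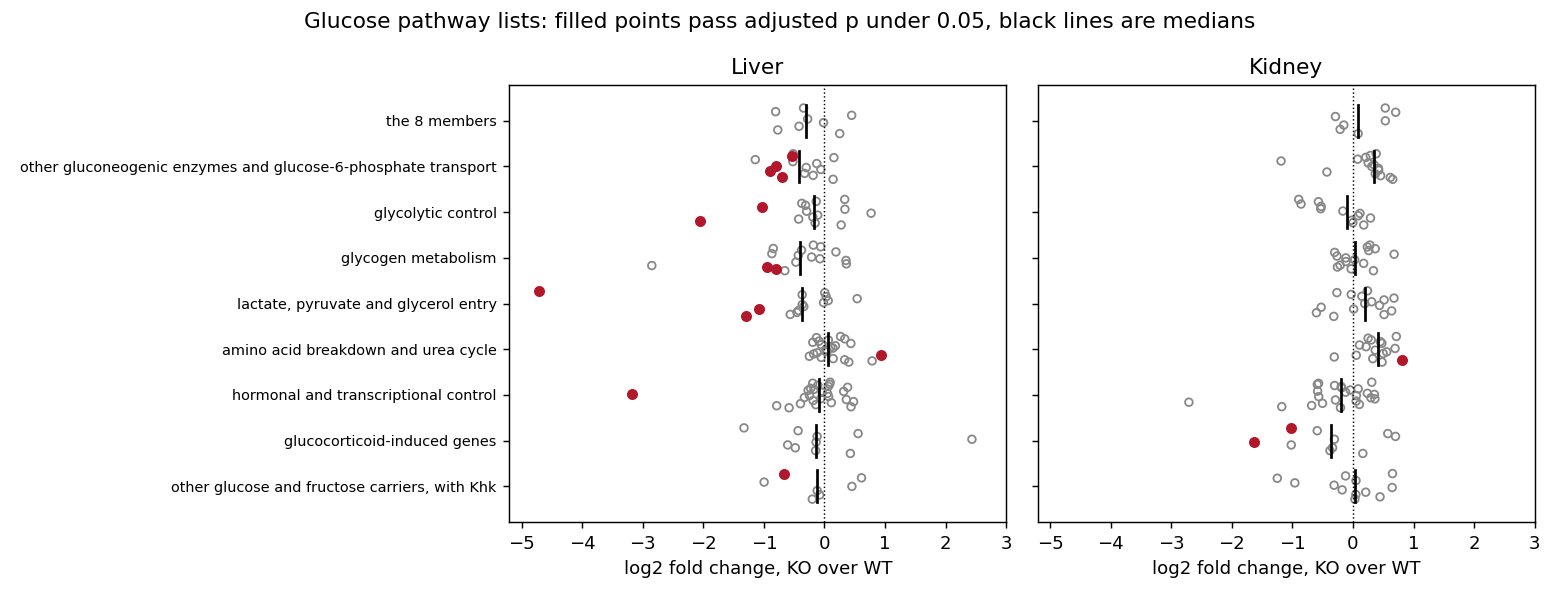
Log2 fold change, labelled knockout over wild type, of each tested gene of the members and the 8 pathway lists in liver and in kidney, with called genes filled and list medians as black lines. Called genes lie mostly below 0 in liver (13 lower, 1 higher of 124) and are few in kidney (2 lower, 1 higher of 119).

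In kidney the same lists had 1 gene higher and 2 lower of 119 tested, where 0.394% of all genes were higher and 1.87% lower. DESeq2 called 4 higher and 3 lower in these lists, beside 306 and 845 of all 16500 genes. With voom, 8 were higher and 9 lower, beside 801 and 1350 of all genes. Of these voom calls, the glucocorticoid-induced genes gave 1 and 5 and amino acid breakdown 4 and 0. The median log2 difference of the 119 genes was 0.09. Each of the 3 calls was lost in several of the 10 fits that left out 1 kidney. Their log2 differences in those fits were 0.74 to 0.88 for Prodh, -1.06 to -0.91 for Cdkn1a and -1.79 to -1.29 for Mt2. Over all genes, these fits called 99 to 921. Prodh, the proline dehydrogenase that feeds carbon into the pathway, was at 403 ± 71.1 against 231 ± 24.5 CPM (0.80, adjusted p = 0.0393), lost without labelled knockout kidney 1, 3, 4 or 5 or wild-type kidney 1, 4 or 5 (0.0752 to 0.118). Of 10 glucocorticoid-induced genes, with a median of -0.36, 2 were lower and 0 higher: Cdkn1a, a cell cycle inhibitor, at 3.15 against 6.40 CPM (-1.02, adjusted p = 0.0233; lost without labelled knockout kidney 1, 3, 4 or 5 or wild-type kidney 4 or 5, 0.0552 to 0.0724), and Mt2, a metallothionein, at 0.588 against 1.84 CPM (-1.63, adjusted p = 0.0460; lost without any labelled knockout kidney or wild-type kidney 3, 4 or 5, 0.0640 to 0.124). Amino acid breakdown, with Prodh, had 15 of 16 genes above 0 and a median of 0.41, where 7233 of all 16500 genes were above 0. Other gluconeogenic enzymes had 13 of 15 above 0 and a median of 0.35, with 0 called by edgeR, 1 at an unadjusted p under 0.05 and 0 by DESeq2. In that list voom called 0 higher and 1 lower, Pck2 (adjusted p = 0.0181). The proximal tubule markers, with 13 of 15 above 0 and a median of 0.45, leaned the same way as both lists. Endothelial and stellate markers leaned the other way, with a median of -0.87. The part of these markers in these values was not tested. Without wild-type kidney 3 the median of the other gluconeogenic enzymes was 0.18, and without wild-type kidneys 1 and 3 it was 0.081 and that of amino acid breakdown 0.23. The glycolytic, glycogen, lactate and glycerol, hormonal and carrier lists had 0 of 12, 15, 15, 24 and 12 called. At an unadjusted p under 0.05, which 19.8% of all tested genes had, they had 3, 1, 1, 4 and 3. DESeq2 called 0, 0, 1, 0 and 0.

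Between wild-type tissues, 33 of the 132 tested genes of these lists were higher in kidney and 65 lower, where 29.6% of all genes were higher and 24.2% lower. Without TMM scaling these counts were 45 and 51. Amino acid breakdown had 21 of 23 genes lower in kidney and 0 higher, with a median log2 fold change of -2.30, and Tat belongs to this kind of gene. Arg1, the last enzyme of the urea cycle, was at 0.0643 CPM in kidney and 1513 in liver. Glycogen metabolism had 10 of 16 lower and 4 higher (7 and 6 without TMM scaling), with Pygl at 16.9 ± 4.80 against 736 ± 141 CPM. Hormonal and transcriptional control had 17 of 26 lower and 3 higher (12 and 5 without TMM scaling). Gcgr was at 59.4 ± 39.0 CPM in kidney and 400.5 ± 79.4 in liver, and Cebpa, a transcription factor of hepatocytes, at 24.7 ± 8.28 and 714 ± 72.4. Carriers went the other way, with 8 of 12 higher in kidney and 2 lower. Slc5a2, the sodium-glucose carrier of the proximal tubule, was at 373 ± 53.4 CPM in kidney and 0.00840 in liver. Glycolytic control was divided, with 5 of 14 higher and 6 lower. Of the other gluconeogenic enzymes 3 of 15 were higher and 2 lower, with Pck2 at 20.6 ± 1.73 CPM in kidney and 10.02 ± 1.24 in liver. G6pc3, the widely expressed glucose-6-phosphatase, was at 49.6 ± 4.88 and 9.80 ± 1.53 CPM, opposite to G6pc. The lactate and glycerol list had 7 of 16 higher and 4 lower, and glucocorticoid-induced genes had 3 of 10 higher and 3 lower.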

How the data were processed

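Kidney and liver RNA of 10 male C57BL/6 mice gave 20 libraries, from Trizol extracts and a NEBNext Ultra kit for RNA, per the labels. The submitters' processing notes name HISAT2 2.0.5, StringTie, DESeq2 1.16.1 and build mm10 with no role or order. The counting tool and the use of strand are not given in the sources used here, so reads of overlapping genes could not be told apart. The authors deposited whole-number counts per gene, which were used as they stand, and log2 FPKM values of 15454 genes, used in 1 alternative.

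The libraries were fitted per tissue (10 libraries), over both tissues (20) and over the wild-type mice (10) with edgeR 4.0.16 in R 4.3.3: genes kept by filterByExpr at a minimum count of 10, scaling by TMM, the quasi-likelihood test and Benjamini-Hochberg adjustment over all tested genes, called at an adjusted p under 0.05. No sample was dropped or imputed in these fits. They gave each group 1 mean, so those that span both tissues did not pair the kidney and liver of a mouse. Correlations used log2(CPM + 0.5). FPKM were computed from the counts, the gene lengths and the library totals. Alternatives were DESeq2 1.42.0, limma 3.58.1 (trend and voom), other scaling and filters, a replicate block, all libraries in 1 fit and leaving out each replicate. Chosen after seeing the data were fits that left out kidneys 1 and 3 of wild type, livers 4 and 5 of labelled knockout or the mitochondrially encoded genes, and the correlations between tissues. The members and lists were chosen with earlier results of these data known. The text names all members, up to 4 genes of smallest p per list and comparison, and the 3 genes most like Pck1, G6pc, Ppargc1a and Tat, while the liver values of Insr and Foxo1, the tissue values of Gcgr and the markers Alb and Slc34a1, outside that rule, were chosen after their values were seen. Of 209 symbols in the lists, markers included, 207 are in the count table. The fits per tissue and over the wild-type mice were also run on simulated counts, drawn without pairing of organs. The fit of the difference was not, and no result here rests on those runs. Kidney and liver of 1 mouse, paired by title number and genotype, had correlations of deviations between -0.19 and 0.39. The labels do not say how the mice were bred or housed, and intervals on counts cover counting error only.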

Additional observations from a re-analysis of the deposited data

Results flagged for a closer look

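Of 132 pathway genes tested around the members, 4 differed by genotype to a different extent in kidney and in liver. The test of that difference in edgeR over 20 libraries called 265 of 17606 genes, or 1.51%. The pathway lists were chosen with earlier results of these data known, so these counts are a description only. Aqp7, a glycerol channel, had a difference between tissues of 4.50 on the log2 scale (adjusted p = 1.88e-05), with 5 counts over the labelled knockout livers against 158 in wild type and 22.4 ± 2.64 against 27.0 ± 3.05 CPM in kidney (mean ± SD, n = 5). With so few counts the size of this fitted value depends on the prior count. Gpi1 had 1.13 (adjusted p = 0.00711), from -0.80 in liver and 0.31 in kidney. Pklr had 2.04 (adjusted p = 0.0326), from -2.06 and -0.03, and lost its call without mouse 4 or 5 of either genotype or labelled knockout mouse 1 or 3. Khk had 1.33 (adjusted p = 0.0320), from -0.66 and 0.65, and lost its call without any labelled knockout mouse or wild-type mouse 1, 4 or 5. Both calls were also lost without labelled knockout livers 4 and 5 (adjusted p = 0.105 for Pklr and 0.135 for Khk) and without TMM scaling (0.0894 and 0.0829). With the mouse as a replicate block, Pklr was not called (adjusted p = 0.0695). Summed hepatocyte markers, a large part of them Alb, were lower in labelled knockout liver, although 4 of the 9 leaned up and 1 was called lower. Summed proximal tubule markers were higher in labelled knockout kidney. The part of these markers in these differences was not tested. In CPM, Dixon's ratio singled out no library in the 30 sets of 5 values of 1 member in 1 group. On the log2 scale, checked after seeing the data, it singled out wild-type kidney 3 for Fbp1 (ratio 0.828) and for Pcx (0.786), both low, and chance gives about 1 in 20 such sets.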

How the results depend on the processing

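The 0 member calls by genotype held under the alternatives run except in kidney, where voom called 1 and the replicate block 1 (G6pc, 1.13, adjusted p = 0.0324), and in the difference, where voom called 1. Between wild-type tissues 5 to 7 members were called when 1 mouse was left out. Over all genes, the liver count of 893 was 1408 with DESeq2 and 296 with the replicate block by title number, and without TMM scaling 216 genes were higher and 765 lower in place of 288 and 605. The kidney count of 373 was 1151 with DESeq2, 237 with limma-trend, 2151 with voom, 909 with the block, 948 with all 20 libraries in 1 fit and 590.0 without wild-type kidneys 1 and 3. The difference count of 265 was 611 with DESeq2, 176 without TMM scaling, 681 with voom and 176 without labelled knockout livers 4 and 5. Leaving out 1 mouse gave 575 to 914 genes in liver, 99 to 921 in kidney, 137 to 338 for the difference and 7729 to 9413 between tissues.

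Some signs changed. In liver, Pfkfb1 was 0.0042 with DESeq2, 0.0043 with its size factors in edgeR, 0.004 with limma-trend, 0.0088 without mitochondrially encoded genes and -0.13 to 0.17 with 1 liver left out. Liver Tat was -0.078 with voom and -0.13 without labelled knockout livers 4 and 5. In kidney, Slc2a2 was -0.0053 without TMM scaling, -0.17 without wild-type kidneys 1 and 3 and -0.047 to 0.34 with 1 kidney left out. For the difference, Pfkfb1 was 0.061 with voom, 0.10 without labelled knockout livers 4 and 5 and -0.37 to 0.11 with 1 mouse left out, and Tat, with next to no kidney counts, went from -1.43 to 0.062 with voom. Between tissues without TMM scaling, Pck1 was 0.20 and Pcx 0.058. Among list genes, Mt1 in liver, at 2.43, was -0.46 with voom and -0.63 without those livers, Pfkfb2 in kidney 0.0093 with voom and 0.13 without wild-type kidneys 1 and 3, and Pdk4 in kidney 0.021 with voom. In the difference, Mt1, at -2.73, was 0.0074 with voom and 0.39 without those livers, Mt2, at -1.46, was 0.072 with voom and Cdkn1a -0.033 to 0.57 with 1 mouse left out. The cause was not tested.

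Mice of equal number and different genotype share only that number: their deviations correlated between -0.04 and 0.02 in liver and 0.04 and 0.17 in kidney, and the block left out wild-type mouse 6 and labelled knockout mouse 2. With that block, the 8 pathway lists in liver had 0 genes higher and 3 lower of 124 in place of 1 and 13, and Gpi1 (adjusted p = 0.0655), Pck2 (0.0688), Hk3, Khk, Oat, Pdk1 and Slc16a7 (0.0633) were among those not called. The block by mouse for kidney against liver left the count of members called between tissues at 6.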
